A study of Mus musculus with 12 samples.

Results

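The loci described here are the stretches of mouse genome that carried no gene name in the deposited expression tables and that spanned less than 300 bp. They were taken by 2 columns, a dash in place of the gene name and a locus end minus start under 300 bp, and no expression value entered the choice. Of 27914 loci, 4778 had no gene name and 2032 of those were shorter than 300 bp. Each is called here by the identifier of the tables (XLOC and a number) and by its mm9 position as deposited.

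The study profiled polyadenylated RNA of mouse pluripotent cells, strain C57 Bl/6J, to set the passage from naive embryonic stem cells (ESC) to primed epiblast-like cells (EpiLC) beside knockout of the deacetylase Sirt1 and knockdown of the transcription factor Otx2. There were 12 libraries in 4 groups of 3: ESC of wild-type genotype, EpiLC made from them, ESC with a Sirt1 knockout (Sirt1KO), and Sirt1KO ESC that also carried the Otx2 knockdown (Sirt1KO Otx2KD ESC). The ESC were kept on gelatin in N2B27, a serum-free medium, with LIF and 2 inhibitors, PD0325901 (1 uM, against MEK) and CHIR99021 (3 uM, against GSK3b). EpiLC were wild-type ESC moved to fibronectin for 48 hours with 12 ng/ml Fgf2, 20 ng/ml Activin A and 1% KOSR. Both Sirt1KO groups shared the Sirt1 knockout, so the Otx2 knockdown was measured within Sirt1KO cells and had no wild-type counterpart among these samples. The labels do not give which part of Sirt1 was deleted, how Otx2 was knocked down, how many clones were used, or whether replicates were separate cultures, so the p-values below measure only the spread between these samples.

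An assembler groups overlapping reads into transcribed stretches, and a stretch that matches no reference gene keeps no name. Such short stretches can be pieces of unannotated noncoding RNA, of transcript ends beyond an annotated gene, or copies of repeated sequence. FPKM (fragments per kilobase and per 1000000 fragments) divides a fragment count by the length over which fragments can be placed, so the same fragment gives a far larger value in a short locus than in a long one.

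The targeted genes were lower where the labels say so, and Sirt1 was not at 0 in the Sirt1KO groups. Wild-type ESC had a Sirt1 FPKM of 25.4 to 26.2, EpiLC 32.0 to 34.5, Sirt1KO ESC 15.3 to 15.7 and Sirt1KO Otx2KD ESC 15.0 to 16.0. Otx2 FPKM was 6.85 to 7.68, 96.3 to 102.2, 22.2 to 34.2 and 5.61 to 6.33 in the same order. Summed FPKM of 8 naive markers was 1139 to 1195 in wild-type ESC, 295 to 299 in EpiLC, 871 to 995 in Sirt1KO ESC and 1164 to 1179 with the knockdown. Of these, Klf4 (mean 54.4 and 108.4 FPKM) and Tfcp2l1 (84.05 and 150.3 FPKM) were higher in Sirt1KO ESC than in wild-type ESC, and the others were lower. Summed FPKM of 7 EpiLC markers was 46.5 to 49.8, 985 to 1022, 221 to 324 and 50.8 to 53.8. Among them only Lef1 was lower in Sirt1KO ESC (mean 2.15 FPKM) than in wild-type ESC (11.3 FPKM). The 8 fibroblast markers summed to 122 to 142, 66.0 to 69.9, 12.2 to 16.0 and 251 to 255, and 6 primitive endoderm markers to between 1.77 and 5.55 in any library. Depth, as the number of fragments by which the FPKM were divided, was 7770000 to 13510000 per library.

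The first question was what an FPKM stands for in a locus this short. Lengths ran from 40 to 299 bp with a median of 141.5 bp, and 718 loci (35.3%) were under 100 bp. The deposited values fell on steps, and the step of every one of the 260 lengths matched the effective length of fragments with a mean of 200 bp, an SD of 80 bp and a shortest fragment of 38 bp, within 0.01%. In wild-type ESC replicate 1 a single fragment was worth 24669 FPKM at 40 bp, 1494 FPKM at 50 bp, 44.2 FPKM at 100 bp, 9.47 FPKM at 150 bp and 0.987 FPKM at 299 bp. Divided by its step, each of the 23364 values above 0 came out as a whole number of fragments, within 0.02 of a fragment or 0.01%.

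In fragments these loci were sparse. The mean over the 12 libraries had a median of 10.2 fragments per locus, 997 loci averaged under 10 fragments, 481 under 5, 101 at least 100 and 9 at least 1000. Mean FPKM fell with length (Spearman's rho -0.89 across the 2032 loci, a description, since length enters FPKM), while mean fragments did not follow length (rho -0.02). Of the 100 loci with the highest mean FPKM, 84 were under 60 bp, and their median was 22.2 fragments. Only 19 loci were in both that 100 and the 100 with the most fragments. The shortest locus, XLOC_009741 (40 bp, chr16:20479532-20479572), shows the scale: its 6, 6 and 6 fragments in wild-type ESC were deposited as 148014, 150080 and 145816 FPKM.

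Unnamed loci lay on both sides of the cutoff at 300 bp, with higher medians just below it in 2 small sets whose difference was not tested. The 29 loci of 297 to 299 bp had a median of 7.90 mean FPKM and 8.42 mean fragments, and the 18 unnamed loci of 300 to 302 bp had medians of 3.19 FPKM and 3.58 fragments.

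**Figure D1:**
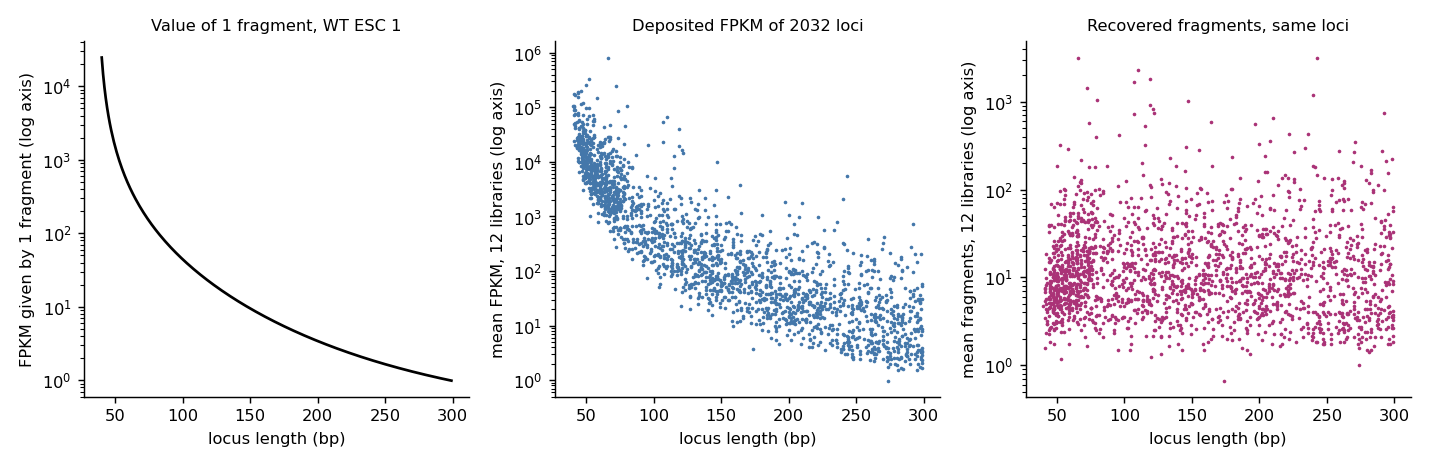
Locus length (bp) against the FPKM that 1 fragment gives in wild-type ESC replicate 1 (left), the mean deposited FPKM over 12 libraries (middle) and the mean recovered fragments (right), each on a log axis, for the 2032 loci in the middle and right panels. The value of 1 fragment drops from 24669 to 0.987 FPKM over these lengths, mean FPKM drops with it, and mean fragments keep a median of 7.71 to 13.3 in each of 7 length classes.

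These loci held almost the whole FPKM sum of every library and under 1% of its fragments. Their share of the FPKM sum was 95.1%, 95.2% and 96.1% in wild-type ESC, 96.5%, 95.5% and 95.6% in EpiLC, 95.4%, 95.1% and 94.9% in Sirt1KO ESC and 95.1%, 95.5% and 95.1% in Sirt1KO Otx2KD ESC. The groups overlapped in each of the 3 comparisons tested, although all EpiLC libraries (95.50% to 96.55%) lay above all 6 of the Sirt1KO groups (94.92% to 95.45%), a contrast that was not tested. The means were 95.5% ± 0.59, 95.9% ± 0.59, 95.2% ± 0.25 and 95.2% ± 0.20 (SD, n = 3). EpiLC differed from wild-type ESC by 0.418 percentage points (two-sided exact permutation test, p = 0.50), Sirt1KO from wild-type ESC by -0.297 points (exact p = 0.60) and Sirt1KO Otx2KD from Sirt1KO by 0.0658 points (exact p = 0.70), all at 0.70 after adjustment over the 3 comparisons. With 3 libraries against 3 this test cannot go below 0.10. Without the 10 loci of highest FPKM the compared groups did not overlap in EpiLC against wild-type ESC (0.554 points) or in Sirt1KO against wild-type ESC (-0.300 points), each at the smallest exact p of 0.10.

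Counted in fragments, the same loci took 0.508% to 0.958% of the denominator. The 306 loci of 40 to 59 bp alone made 65.1% of the FPKM sum over all 12 libraries with 6.69% of the fragments of the short unnamed loci, and the 298 loci of 60 to 79 bp made 23.7% with 17.8%. At the other end, the 315 loci of 250 to 299 bp made 0.0887% of the FPKM sum with 12.7% of those fragments. Unnamed loci of 300 bp or longer, which were more numerous (2746), made 0.314% to 0.368% of the FPKM sum, and named loci 3.14% to 4.73%.

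Much of the spread in fragments between libraries lay in 23 loci that varied with Rn45s, the 45S precursor of ribosomal RNA. Rn45s FPKM was 277, 546 and 3391 in wild-type ESC, 4077, 298 and 474 in EpiLC, 2376, 1611 and 865 in Sirt1KO ESC and 1355, 2331 and 1264 in Sirt1KO Otx2KD ESC, a 14.7-fold range that did not divide by group. Among the 1621 loci above 0 in all 12 libraries, 23 had a Pearson correlation over 0.9 with Rn45s on a log2 scale (n = 12 libraries, 4 groups pooled, a description), and the next was at 0.85. They lay on 13 chromosomes, were 46 to 299 bp long, and included 7 of the 9 loci that averaged at least 1000 fragments.

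The most abundant of these by FPKM was XLOC_014916 (66 bp, chr2:90235284-90235350). Its FPKM values were 178428, 316814 and 1770000 in wild-type ESC, with 2270000, 178493 and 275838 in EpiLC, 1040000, 685524 and 434278 in Sirt1KO ESC and 672900, 1300000 and 728705 with the knockdown. Its ratio to Rn45s stayed between 425 and 645, and it alone made 1.70% to 14.7% of a library's FPKM sum. XLOC_014786 (243 bp, chr2:22600258-22600501) held about as many fragments, 658 to 8926, at ratios to Rn45s of only 2.93 to 4.28. At similar fragments, the longer locus was thus deposited at a small fraction of the FPKM of the shorter one.

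The 23 loci held 4137, 7192 and 41957 fragments in wild-type ESC, 53000, 5068 and 5141 in EpiLC, 25991, 19890 and 11767 in Sirt1KO ESC and 21002, 22014 and 16865 with the knockdown. That was 7.38% (EpiLC replicate 2) to 50.7% (EpiLC replicate 1) of all fragments in short unnamed loci. Without them the other 2009 loci took 0.464% to 0.473% of the denominator in wild-type ESC, 0.471% to 0.474% in EpiLC, 0.465% to 0.480% in Sirt1KO ESC and 0.456% to 0.462% in Sirt1KO Otx2KD ESC. None of the 23 passed limma's test (adjusted p under 0.05) in any of the 3 comparisons. They were chosen for following Rn45s, which varied widely within groups, so this test could hardly call them. Whether they are copies of ribosomal RNA sequence was not tested, since no genome of the build of these files was used.

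**Figure D2:**
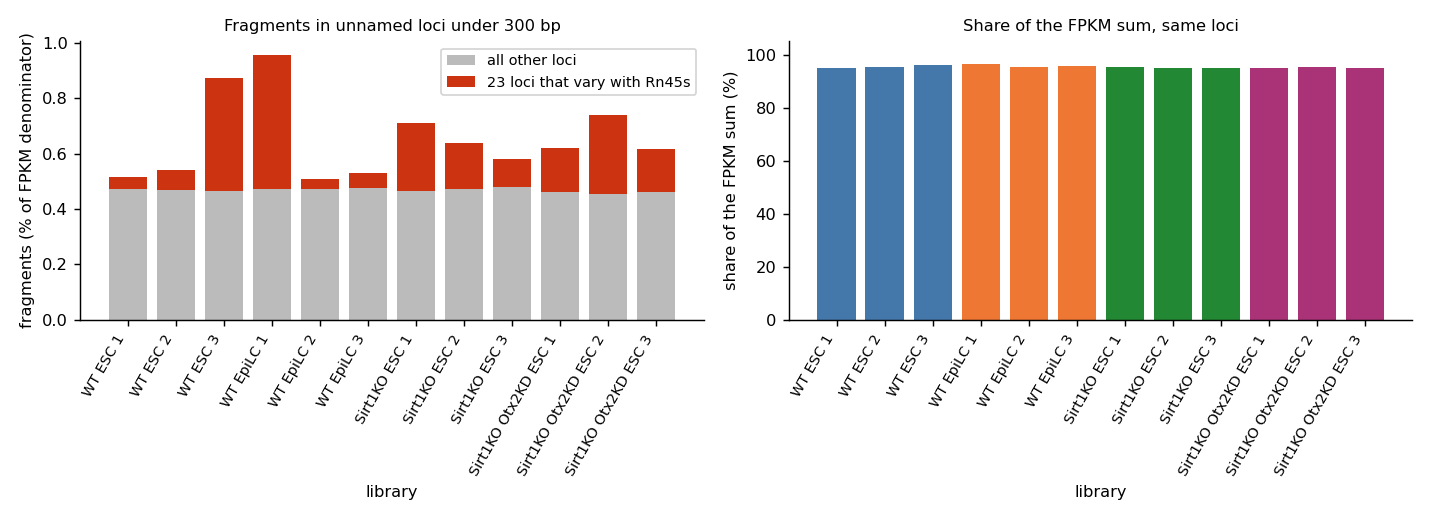
Left, fragments in unnamed loci under 300 bp as a percentage of each library's FPKM denominator, split into the 23 loci that vary with Rn45s (red) and the other 2009 (grey). Right, the share of the FPKM sum (%) held by all 2032 loci in the same 12 libraries; the grey part stays between 0.456% and 0.480%, the red part is tallest in wild-type ESC replicate 3 and EpiLC replicate 1, and the FPKM share is 94.9% to 96.5% throughout.

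Nearly all short unnamed loci were on in every group. A locus was counted as on when its FPKM was above 0, which here means at least 1 fragment. Per library 1937, 1947 and 1953 were on in wild-type ESC, 1928, 1950 and 1911 in EpiLC, 1945, 1958 and 1975 in Sirt1KO ESC and 1979, 1916 and 1965 in Sirt1KO Otx2KD ESC. The lowest counts, 1911 and 1916, came from the libraries with the fewest fragments (8990000 and 7770000). The highest, 1979, came from one with 13310000, while the deepest library, EpiLC replicate 2 with 13510000, had 1950.

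Mean counts of loci on were 1946 ± 8.1 in wild-type ESC, 1930 ± 20 in EpiLC, 1959 ± 15 in Sirt1KO ESC and 1953 ± 33 in Sirt1KO Otx2KD ESC (SD, n = 3). No comparison was beyond the replicate spread (two-sided exact permutation p = 0.30, 0.30 and 0.90, adjusted over 3 0.45, 0.45 and 0.90). Thinned to the depth of the smallest library, an alternative added after seeing the data, 1889 to 1899 loci would be on in EpiLC and 1904 to 1920 in wild-type ESC, without overlap (exact p = 0.10, the smallest this design allows). By locus, 1857, 1852, 1882 and 1852 were on in all 3 libraries of the 4 groups in the order above, 1621 were on in all 12, and none was at 0 in all 12. Loci at 0 in all 3 libraries of a group numbered 24 in wild-type ESC, 47 in EpiLC, 12 in Sirt1KO ESC and 14 in Sirt1KO Otx2KD ESC. Among the 2746 unnamed loci of 300 bp or longer these numbers were 41, 97, 25 and 33. Named loci of this length were mostly off: of 272 named loci under 300 bp, 257 with a small RNA name (241 beginning Mir), 234 were at 0 in all 12 libraries and 4 were on in all 12. This contrast is largely given by how the sets arose. An unnamed stretch is assembled from reads, while a named locus is listed with or without them.

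The short unnamed loci were spread over all chromosomes, and X held the largest excess. X carried 200 of them (9.84%) against 4.37% of named loci, a ratio of 2.26, and chromosome 19 carried 32 (1.58%) against 3.25%, a ratio of 0.485. For the other numbered chromosomes the ratio lay between 0.72 and 1.33. Unnamed loci of 300 bp or longer were not enriched on X, which held 111 of 2746 (4.04%). Of the 200 X loci, 188 were on in all 3 libraries in wild-type ESC, 188 in EpiLC, 189 in Sirt1KO ESC and 194 with the knockdown. Of all 2032 loci 91.4%, 91.1%, 92.6% and 91.1% were on in this way. The list of loci was the same for every group, so the excess on X could hardly differ between groups.

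**Figure D3:**
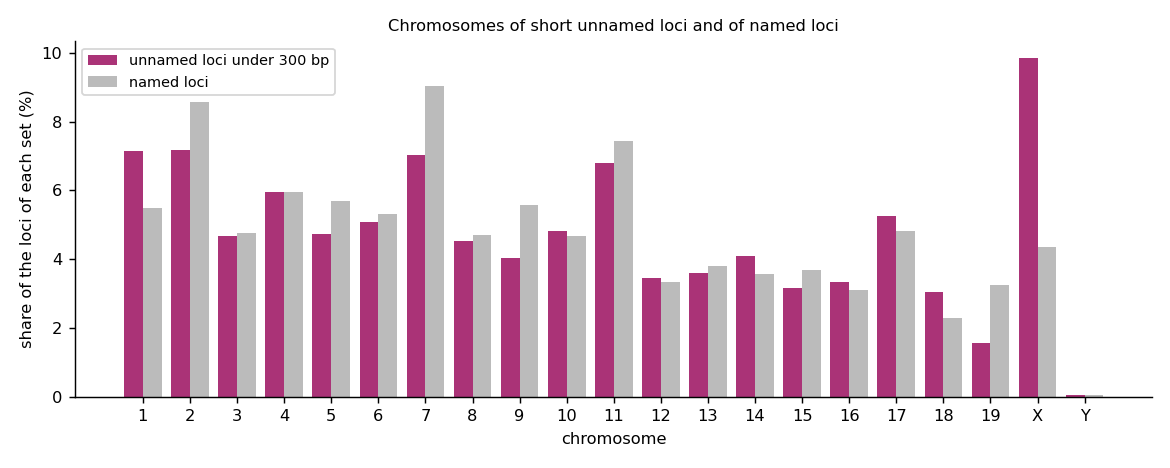
Share (%) of the 2032 unnamed loci under 300 bp and of the 23136 named loci on each chromosome (loci on unplaced sequence are left out). X stands at 9.84% against 4.37%, and chromosome 19 at 1.58% against 3.25%.

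No short unnamed locus overlapped a named locus, which may be given by how loci were named and was not tested. The median distance to the nearest named locus was 29500 bp, 334 loci (16.4%) lay within 5 kb of one and 792 (39.0%) lay more than 50 kb away. They clustered: 1031 (50.7%) had another unnamed locus within 1 kb. A fixed list of genes that host small nucleolar RNAs and microRNAs had 45 genes in the tables, 43 of them tested. By the limma test described next, 18 of these hosts rose and 15 fell in EpiLC, 19 rose and 7 fell in Sirt1KO ESC, and 4 rose and 20 fell with the knockdown. Of 12320 named loci tested, 72.5%, 61.8% and 58.9% were called. Of these, 4298 rose and 4630 fell, 3784 rose and 3833 fell, and 3623 rose and 3637 fell in the same order. No short unnamed locus lay inside a host, so these counts describe the hosts only.

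Changes between groups were tested with limma on log2(FPKM + 1) over all 17009 loci that reached FPKM 1 in at least 3 libraries, which included every one of the 2032. Between EpiLC and wild-type ESC 263 short unnamed loci rose and 302 fell, 27.8% of 2032, where 63.5% of all loci tested were called. Between Sirt1KO and wild-type ESC 183 rose and 219 fell (19.8%, against 52.5% of all loci). Between Sirt1KO Otx2KD and Sirt1KO 159 rose and 131 fell (14.3%, against 48.9%). Without 39 neighbouring loci of chromosome 11, described below, the counts were 263 and 264, 183 and 190, and 133 and 131. The 39 loci were picked after their values were seen, so these more even splits describe this fit only. A fit on fragments, also described below and with the 39 loci kept, split less evenly. In it 231 rose and 292 fell, 135 rose and 200 fell, and 121 rose and 80 fell in the same order. The first 2 comparisons share the wild-type ESC libraries and the last 2 share the Sirt1KO libraries. The medians of all short unnamed loci were 0.03, 0.03 and -0.04 (log2), beside -0.01, 0.01 and -0.01 over all loci.

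The groups' libraries did not overlap for 37.6%, 31.0% and 24.8% of the short unnamed loci in the 3 comparisons, against 68.5%, 59.8% and 57.6% of all loci. Calls were more frequent from 20 fragments up. In EpiLC 23.9% of loci averaging under 5 fragments were called, 23.4% of those with 5 to under 20, 36.7% with 20 to under 100 and 47.5% with 100 or more. In Sirt1KO ESC these shares were 13.9%, 18.2%, 25.3% and 36.6%, and with the knockdown 11.6%, 11.8%, 19.4% and 26.7%. Unnamed loci of 300 bp or longer were called at 49.5%, 34.2% and 28.6%. Replicates differed little more than counting alone gives: over loci with a mean of at least 5 fragments, without the 23 above, chi-square per degree of freedom averaged 1.07 to 1.20 within the 4 groups.

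Tested instead as fragments per library among unnamed loci, 523, 335 and 201 short loci were called (where 37.7%, 22.9% and 16% of all 4778 unnamed loci were). Of these, 459, 291 and 175 were also called on FPKM, each in the same direction, which is 81.2%, 72.4% and 60.3% of the FPKM calls and 87.8%, 86.9% and 87.1% of the fragment calls. The loci below are therefore given in fragments, per library or per 1000000 fragments of the denominator (FPM, which is not divided by length).

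Several short unnamed loci were higher in EpiLC than in wild-type ESC, where some of them had few fragments or none. XLOC_016334 (154 bp, chr3:77366649-77366803, 853 kb from the nearest named locus, Fstl5) had 3, 3 and 5 fragments in wild-type ESC, 214, 272 and 186 in EpiLC, 54, 29 and 27 in Sirt1KO ESC and 7, 6 and 7 in Sirt1KO Otx2KD ESC. EpiLC libraries were all far above the rest, and Sirt1KO libraries lay between them and the other groups without overlap. Its FPM went from 0.361 ± 0.11 in wild-type ESC to 20.2 ± 0.52 in EpiLC (SD, n = 3), a 55.8-fold difference (log2 5.80, SE 0.31, limma adjusted p = 1.43e-07). In Sirt1KO ESC it was 9.04-fold above wild type (log2 3.07, adjusted p = 2.07e-05), and the knockdown lowered it (log2 -2.23, adjusted p = 2.355e-04).

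XLOC_019549 (78 bp, chr5:89267335-89267413, 48.9 kb from Slc4a4) had 10, 7 and 5 fragments in wild-type ESC against 57, 62 and 62 in EpiLC, with 13, 10 and 15 and then 10, 5 and 8 in the Sirt1KO groups. The rise in EpiLC was 7.69-fold (log2 2.98, SE 0.27, limma adjusted p = 4.50e-06). Its Sirt1KO difference did not pass (log2 0.65, adjusted p = 0.0664).

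A pair of neighbouring loci on chromosome 8, near Terf2ip, a telomere protein gene, moved in EpiLC and in Sirt1KO ESC. XLOC_024966 (223 bp, chr8:114551036-114551259, 6.61 kb from Terf2ip) had 2, 0 and 1 fragments in wild-type ESC, 18, 25 and 24 in EpiLC, 23, 20 and 11 in Sirt1KO ESC and 3, 2 and 3 with the knockdown. EpiLC and Sirt1KO libraries were all above the other 6. It rose in EpiLC (log2 4.21, SE 0.56, limma adjusted p = 1.24e-04) and in Sirt1KO ESC (log2 3.79, adjusted p = 3.58e-04), and fell with the knockdown (log2 -2.39, adjusted p = 0.00635, but 0.111 with a pseudocount of 0.1). XLOC_024967 (165 bp, chr8:114554681-114554846) was at 0 in wild-type ESC and had 10, 12 and 9 fragments in EpiLC, at least 3.16-fold above a floor of 3 fragments per library. Named loci of chromosome 8 were higher as a whole in the same comparisons (medians 0.40 and 0.46, log2), and the copy number of the chromosome was not tested.

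Other loci that rose in EpiLC included XLOC_018080 (211 bp, chr4:145765482-145765693), with 5, 3 and 3 fragments in wild-type ESC against 16, 22 and 29 in EpiLC (log2 2.38, SE 0.35, limma adjusted p = 2.12e-04). XLOC_026330 (282 bp, chr9:17998281-17998563) had 2, 4 and 1 and then 11, 27 and 14, and at most 1 fragment in any of the 6 Sirt1KO libraries. Across the set of 2032, 10 loci were on in all 3 EpiLC libraries and at 0 in all 3 of wild-type ESC, and 25 were the reverse. Like counts over other loci are not given, here or for the comparisons below, so these have no background rate. The clearest of the reverse kind was XLOC_017990 (101 bp, chr4:118172209-118172310, 9.76 kb from Tie1, an endothelial receptor gene), with 23, 24 and 20 fragments in wild-type ESC, 0, 0 and 0 in EpiLC, 2, 7 and 7 in Sirt1KO ESC and 13, 4 and 17 with the knockdown. Wild-type ESC was at least 7.97-fold above the floor in EpiLC.

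**Figure D4:**
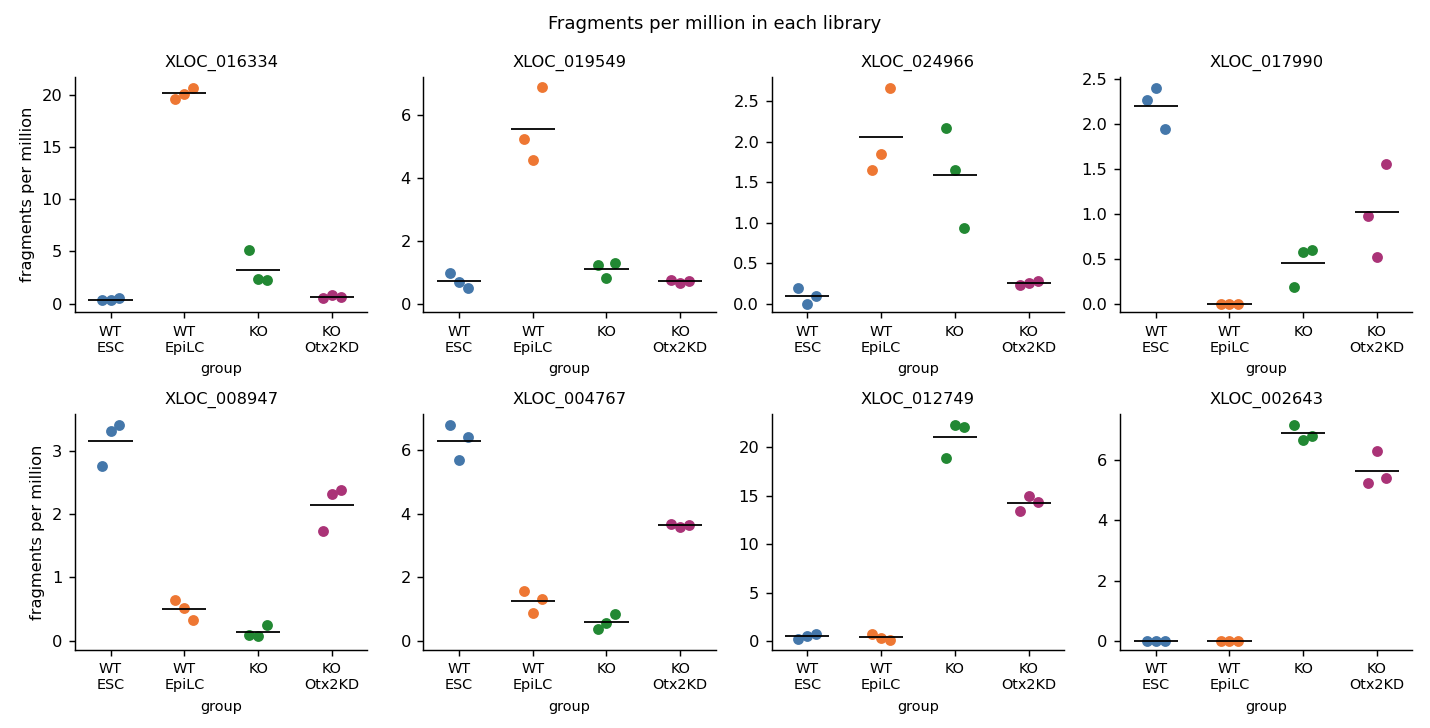
FPM (fragments per 1000000 of the library's FPKM denominator) of 8 short unnamed loci in each library, by group (WT ESC, WT EpiLC, KO for Sirt1KO ESC, KO Otx2KD for Sirt1KO Otx2KD ESC; dots are libraries, bars group means, n = 3). XLOC_016334 and XLOC_019549 are highest in EpiLC, XLOC_008947 and XLOC_004767 are high in wild-type ESC and with the knockdown, and XLOC_012749 and XLOC_002643 are high in both Sirt1KO groups.

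The largest group of loci that moved together lay in 1 stretch of chromosome 11. Between Mir1932 and A730011L01Rik, chr11:119269963-119348777 (78814 bp) held 55 unnamed loci with gaps of at most 10 kb, 39 of them under 300 bp (104 to 299 bp). The stretch was picked out after its values were seen, so its counts are a description, and its loci may be pieces of 1 transcript rather than separate observations.

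Summed over the 39 loci there were 925, 897 and 781 fragments in wild-type ESC, 97, 125 and 100 in EpiLC, 189, 268 and 253 in Sirt1KO ESC and 1097, 561 and 831 in Sirt1KO Otx2KD ESC. In FPM this was 85.7 ± 8.5, 9.76 ± 1.2, 20.5 ± 2.3 and 76.9 ± 5.1 (SD, n = 3). The summed fibroblast markers, 122 to 142, 66.0 to 69.9, 12.2 to 16.0 and 251 to 255 FPKM, had the same signs of change in the 3 comparisons. Their lowest group was Sirt1KO ESC. The summed naive markers, 1139 to 1195, 295 to 299, 871 to 995 and 1164 to 1179 FPKM, also had those signs, with EpiLC lowest as in the stretch. The part of either list in the result was not tested. Wild-type ESC (75.9 to 91.3) and Sirt1KO Otx2KD ESC (72.2 to 82.4) overlapped, and both stood clear of EpiLC and Sirt1KO ESC. All 39 had a lower mean in EpiLC than in wild-type ESC, 38 were called lower and none higher, with a median of -3.14 (log2, range -5.02 to -1.70). In Sirt1KO ESC 29 were called lower and none higher (median -2.06), and with the knockdown 26 were called higher and none lower (median 1.88). The 16 longer unnamed loci of the stretch moved alike, with medians of -2.50, -1.80 and 1.67, and all 16 were called in each comparison. Of all loci tested 63.5%, 52.5% and 48.9% were called in the 3 comparisons.

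A locus within it shows the pattern. XLOC_004855 (296 bp, chr11:119327174-119327470) had 45, 60 and 51 fragments in wild-type ESC, 4, 2 and 4 in EpiLC, 15, 14 and 14 in Sirt1KO ESC and 62, 37 and 57 with the knockdown. The changes were -3.72 (SE 0.25, limma adjusted p = 7.685e-07), -1.95 (adjusted p = 1.21e-04) and 1.88 (adjusted p = 1.924e-04) on the log2 scale. XLOC_004849 (272 bp, chr11:119319580-119319852) went from 62, 56 and 47 fragments in wild-type ESC to 3, 2 and 6 in EpiLC.

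**Figure D5:**
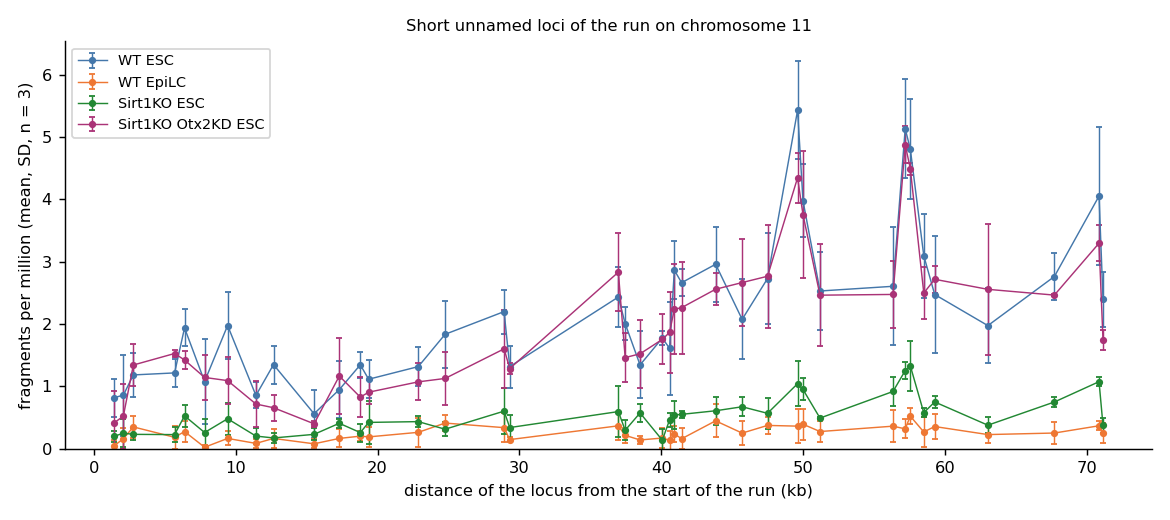
FPM (mean, bars SD, n = 3 libraries) of the 39 short unnamed loci of the chromosome 11 stretch against distance from its start (kb), by group. Wild-type ESC or Sirt1KO Otx2KD ESC has the highest mean at each of the 39 loci, and EpiLC has the lowest at 36 of them, Sirt1KO ESC at the other 3.

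Chromosome 11 also bears on how the short loci compare with the genes around them. Named loci of chromosome 11 had a median of -0.46 in EpiLC against wild-type ESC and -0.49 in Sirt1KO ESC against wild-type ESC (log2, 1039 loci tested), and named loci of chromosome 8 had medians of 0.40 and 0.46 (680 loci), beside -0.01 and 0.02 for named loci elsewhere. The 99 short unnamed loci of chromosome 11 outside the stretch had medians of -0.04 and -0.15, with 16 higher and 13 lower in EpiLC and 10 higher and 12 lower in Sirt1KO ESC. The 92 of chromosome 8 had medians of -0.06 and 0.09, with 15 higher and 12 lower, and 10 higher and 12 lower. Kept to loci averaging at least 10 fragments the medians were 0.05 and 0.02 on chromosome 11 (45 loci) and on chromosome 8 -0.05 in EpiLC (42 loci), with 4 higher and 7 lower in Sirt1KO ESC. Unnamed loci of 300 bp or longer lay between on chromosome 8 (0.07 and 0.19) and near the named loci on chromosome 11 (-0.38 and -0.37). Short unnamed loci within 5 kb of a named locus, which were few, had medians of -0.00 and 0.56 on chromosome 8 (17 loci) and -0.11 and -0.28 on chromosome 11 (27 loci), so that in Sirt1KO ESC they had the sign of the named loci. The difference between the sets and the copy number of either chromosome were not tested, and both comparisons use the same wild-type ESC libraries.

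Other stretches of at least 8 short unnamed loci moved less. On chromosome 1, chr1:113947220-113951442 (4222 bp, 8 loci of 50 to 164 bp) held 116, 82 and 92 fragments in wild-type ESC, 200, 236 and 165 in EpiLC, 164, 194 and 216 in Sirt1KO ESC and 164, 74 and 113 with the knockdown. In EpiLC 4 of its loci were called higher (median 0.95, log2), in Sirt1KO ESC 5 higher (median 0.91) and with the knockdown 3 lower (median -0.62), with none called the other way. In a second stretch of that chromosome, chr1:37157395-37198234, 4 of 8 were called lower in Sirt1KO ESC (median -0.77), and in chr7:134659433-134710396 4 of 8 were called higher with the knockdown (median 0.70). Of all loci tested 63.5%, 52.5% and 48.9% were called in the 3 comparisons, and of all short unnamed loci 27.8%, 19.8% and 14.3%.

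Short unnamed loci elsewhere also fell in EpiLC and in Sirt1KO ESC and rose with the knockdown, but with Sirt1KO ESC as the lowest group. XLOC_008947 (257 bp, chr15:96996854-96997111) had 28, 33 and 35 fragments in wild-type ESC, 7, 7 and 3 in EpiLC, 1, 1 and 3 in Sirt1KO ESC and 23, 18 and 26 with the knockdown. It fell in Sirt1KO ESC (log2 -4.03, SE 0.30, limma adjusted p = 3.03e-06) and rose with the knockdown (log2 3.48, adjusted p = 1.18e-05), with no overlap between the groups compared. XLOC_004767 (297 bp, chr11:87845045-87845342, 15.8 kb from the splicing factor gene Srsf1) had 69, 57 and 66, then 17, 12 and 12, then 4, 7 and 10, and 49, 28 and 40 fragments. Its FPM fell 10.5-fold in Sirt1KO ESC, from 6.31 ± 0.56 to 0.602 ± 0.24 (log2 -3.25, adjusted p = 2.83e-06), and with the knockdown it stood at 3.65 ± 0.040, 6.06-fold above Sirt1KO ESC (log2 2.48, adjusted p = 2.52e-05).

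Other losses in Sirt1KO ESC returned in part or not at all with the knockdown. XLOC_006784 (185 bp, chr13:61801515-61801700) had 12, 10 and 18 fragments in wild-type ESC, 1, 4 and 1 in EpiLC and 0 in all 6 Sirt1KO libraries, a loss of at least 5.01-fold against the floor of 3 fragments. XLOC_023343 (193 bp, chr7:30983685-30983878, 3.62 kb from the calpain subunit gene Capns1) had 26, 15 and 18 in wild-type ESC, 2, 5 and 1 in Sirt1KO ESC and 10, 4 and 5 with the knockdown. It fell in Sirt1KO ESC (log2 -3.13, SE 0.44, limma adjusted p = 2.36e-04) and rose with the knockdown (log2 1.43, adjusted p = 0.0229).

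Both Sirt1KO groups carried short transcripts that were scarce or at 0 in the wild-type groups. XLOC_012749 (157 bp, chr19:54333102-54333259, 209.6 kb from Adra2a) had 2, 5 and 7 fragments in wild-type ESC, 8, 4 and 1 in EpiLC, but 201, 270 and 260 in Sirt1KO ESC and 179, 116 and 157 with the knockdown. All 6 Sirt1KO libraries lay above all 6 wild-type ones. Its FPM was 0.459 ± 0.24 in wild-type ESC and 21.1 ± 1.9 in Sirt1KO ESC, 46.0-fold higher (log2 5.65, SE 0.61, limma adjusted p = 4.26e-05). It was 14.3 ± 0.75 with the knockdown, a difference from Sirt1KO ESC that did not pass the test (log2 -0.57, adjusted p = 0.481).

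XLOC_002643 (65 bp, chr10:16489283-16489348, 181.6 kb from Gm20125) was at 0 in all 6 wild-type libraries and had 76, 81 and 80 fragments in Sirt1KO ESC and 70, 49 and 59 with the knockdown. Sirt1KO ESC was at least 23.3-fold above the floor in wild-type ESC (limma adjusted p = 2.145e-15). XLOC_027728 on X, XLOC_014791 on chromosome 2 and XLOC_017873 on chromosome 4 were likewise at 0 in the 6 wild-type libraries and above 0 in the 6 Sirt1KO libraries, with 1 to 12 fragments in each. In all, 14 of the 2032 short unnamed loci were on in the 3 Sirt1KO ESC libraries and at 0 in the 3 of wild-type ESC, and 8 were the reverse. Whether such loci follow the Sirt1 genotype or the history of the Sirt1KO line cannot be told apart with these groups.

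Among the loci that fell with the knockdown was XLOC_017855 (70 bp, chr4:26428684-26428754). It had 5, 3 and 4 fragments in wild-type ESC, 12, 19 and 15 in EpiLC, 6, 12 and 8 in Sirt1KO ESC and 1, 2 and 2 in Sirt1KO Otx2KD ESC. It fell with the knockdown (log2 -2.25, SE 0.42, limma adjusted p = 0.00142), and its difference between Sirt1KO and wild-type ESC did not pass (log2 0.91, adjusted p = 0.0956). On in all 3 libraries with the knockdown and at 0 in Sirt1KO ESC were 5 of the 2032 loci, and 3 were the reverse.

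Where a short unnamed locus and the gene beside it both changed, they mostly changed the same way. Of the 334 within 5 kb of a named locus, 244 had a tested neighbour. Of those neighbours 173 were called in EpiLC, 159 in Sirt1KO ESC and 144 with the knockdown. Of the 244 short loci 26.2%, 16.0% and 17.6% were called in the same order. Both were called in 51 pairs in EpiLC against wild-type ESC, 39 of them in the same direction. In Sirt1KO ESC 30 of 32 such pairs shared their direction, and with the knockdown 29 of 31. Whether both were called more often than these shares of calls alone would give was not tested. The pairs below were picked after their values were seen.

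In EpiLC, XLOC_002787 (160 bp, chr10:88147635-88147795), 1782 bp from Spic, an Ets-family transcription factor gene, had 12, 9 and 14 fragments in wild-type ESC but 0, 0 and 0 in EpiLC (limma adjusted p = 1.44e-08), while Spic went from 35.4 ± 2.3 to 0.691 ± 0.34 FPKM (log2 -4.45, adjusted p = 2.66e-09). XLOC_001286 (209 bp, chr1:13117654-13117863), 410 bp from Prdm14, a transcriptional regulator of the naive state, had 6, 4 and 5 and then 0, 0 and 0 (adjusted p = 4.30e-04), beside 31.9 ± 0.71 and 1.13 ± 0.13 FPKM of Prdm14. In the opposite direction XLOC_014923 (205 bp, chr2:102241142-102241347), 85 bp from Trim44, had 1, 1 and 1 and then 7, 10 and 7 fragments (log2 2.53, adjusted p = 0.00928), and Trim44 rose from 2.82 ± 0.11 to 13.9 ± 0.70 FPKM.

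In the Sirt1KO groups, XLOC_007898 (121 bp, chr14:70008981-70009102), 180 bp from the lysyl oxidase gene Loxl2, had 9, 10 and 5 fragments in wild-type ESC, 2, 4 and 4 in EpiLC, 2, 0 and 0 in Sirt1KO ESC and 23, 15 and 14 with the knockdown. It fell in Sirt1KO ESC (limma adjusted p = 0.00443) and rose with the knockdown (adjusted p = 0.00179), and Loxl2 FPKM was 9.65 ± 0.59, 4.43 ± 0.56, 0.846 ± 0.11 and 22.2 ± 0.59 in the 4 groups. XLOC_009772 (204 bp, chr16:45093782-45093986), 179 bp from Ccdc80, an extracellular matrix protein gene, had 4, 3 and 12, then 0, 1 and 0, then 0, 0 and 1, then 14, 3 and 12 fragments (log2 -3.57, -3.52 and 4.05, limma adjusted p = 0.00233, 0.00332 and 0.00165). The summed FPKM of the 8 fibroblast markers, given above, had the same order of groups as Loxl2. All 8 were lower in Sirt1KO ESC than in wild-type ESC and higher with the knockdown, but Thy1 (6.64 and 15.5 FPKM) and Dcn (4.95 and 5.46 FPKM) were higher in EpiLC than in wild-type ESC. Their part in the result was not tested, and in bulk RNA fewer cells of a type and less RNA per cell cannot be told apart. XLOC_019638 (218 bp, chr5:115915090-115915308), 824 bp from the phospholipase gene Pla2g1b, had 90, 72 and 77 fragments in wild-type ESC, 55, 59 and 54 in EpiLC, 14, 27 and 18 in Sirt1KO ESC and 50, 22 and 31 with the knockdown, with log2 changes of -2.22 in Sirt1KO ESC (SE 0.20, adjusted p = 9.16e-06) and -2.27 for Pla2g1b.

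The 2 loci over 1000 mean fragments that did not follow Rn45s varied little. XLOC_010969 (80 bp, chr17:8759407-8759487) had 863, 789 and 887 fragments in wild-type ESC, 1032, 1301 and 895 in EpiLC, 1090, 1280 and 1226 in Sirt1KO ESC and 1241, 810 and 1056 with the knockdown, and no comparison passed (limma adjusted p = 0.525, 0.365 and 0.816). XLOC_027765 (240 bp, chrX:138415958-138416198) had 1103, 1060 and 1098, then 1488, 1849 and 1147, then 1052, 1204 and 1112, then 1404, 842 and 1213. It rose in EpiLC (log2 0.32, SE 0.08, limma adjusted p = 0.00575). With similar fragments, the first was deposited at 88938 to 119049 FPKM and the second at 1797 to 2596 FPKM.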

How the data were processed

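RNA-seq of 12 samples was read from 12 deposited tables of the same 27914 loci, whose values are FPKM made by the authors with TopHat, Cufflinks and Cuffdiff on mm9, per the submitters' processing notes; settings are not given in the sources used here. RNA was oligo-dT selected, per the labels' protocols. The labels group the samples. Members and lists were chosen with earlier results of these data known. From the FPKM the steps given by 1 fragment were recovered, and with them fragments per locus (the highest values are deposited to 3 significant digits, so their fragments are approximate); the fragment length settings are inferred from the values, not stated.

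FPKM were tested with limma 3.58.1 in R 4.3.3 on log2(FPKM + 1), all 12 libraries in 1 fit with trend and robust variance, keeping loci that reached FPKM 1 in 3 or more libraries, Benjamini-Hochberg adjusted p under 0.05; the fit was tested on simulated data. A log2 change is on that scale and understates changes where FPKM is low. Where 1 fragment is worth many FPKM, a change from or to 0 comes out larger than on fragments. For the EpiLC comparison XLOC_026327 (48 bp) had log2 13.86 on FPKM but 3.924 on fragments. XLOC_011158 (41 bp) had -15.04 on FPKM but -2.600 on fragments. Shares and counts were compared by exact permutation. Named loci are up to 8 per direction and comparison with the largest change among called loci above 0 in all 6 libraries and without overlap, up to 4 on in one group and at 0 in the other, the 8 highest in FPKM and in FPKM times length, and the shortest and longest; those that matter most are printed. Loci near genes, the stretch on chromosome 11 and the loci that follow Rn45s were picked after values were seen. Coordinates are as deposited. Depth was 7770000 to 13510000 fragments per library, which sets what 1 fragment is worth. Alternatives are given in the closing section.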

Additional observations from a re-analysis of the deposited data

How the results depend on the processing

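Loci called numbered 565, 402 and 290 in EpiLC against wild-type ESC, Sirt1KO against wild-type ESC, and Sirt1KO Otx2KD against Sirt1KO. Of 71 alternative counts, 63 were within 1.5 times of these. Fewer loci entered with a length under 200 bp (331, 233 and 157 called) or a mean of at least 10 fragments (337, 247 and 180, added after seeing the data), and fewer were called when only unnamed loci were fitted (252 in Sirt1KO and 142 with the knockdown). Leaving out a library gave 478 to 507, 328 to 356 and 231 to 255.

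No setting of the share of the FPKM sum or of the count of loci on could go below an exact p of 0.10. That p was reached by the share without the 10 loci of highest FPKM (0.554 in EpiLC, -0.300 in Sirt1KO) and without the loci that follow Rn45s (0.442 and -0.379). It was also reached by the count above 2 times the smallest FPKM (-48.7 and -40.7), by the thinned count in EpiLC (-20.8) and by the count under 200 bp in Sirt1KO (15.0). In the 2 comparisons with Sirt1KO ESC both changed sign with the setting. For loci on, Sirt1KO minus wild-type ESC was -18.3 at FPKM of at least 10, -40.7 above 2 times the smallest FPKM and -0.951 after thinning. Sirt1KO Otx2KD minus Sirt1KO was 35.7 at FPKM of at least 10 and 10.5 after thinning. Without 1 library the differences ranged from -26.2 to -6.67 in EpiLC, 5.83 to 20.8 in Sirt1KO and -18.8 to 12.7 with the knockdown. For the share, Sirt1KO minus wild-type ESC was 9.352e-05 percentage points as a share of fragments. Sirt1KO Otx2KD minus Sirt1KO was -0.0425 by FPKM times length, -0.0679 without the 10 loci of highest FPKM and -0.151 without the loci that follow Rn45s. Without 1 library the share differed by 0.0806 to 0.758, -0.494 to 0.0430 and -0.0500 to 0.202 points. The cause of these changes was not tested.

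Alternative fits of single loci covered 27 comparisons and left out the loci printed beside a neighbouring gene such as Spic or Loxl2. Of these 533 fits, 530 kept their direction and side of the threshold and none reversed. The exceptions were XLOC_024966 with the knockdown, given above, and XLOC_012749 with the knockdown, which passed with a pseudocount of 100 and with only its 2 groups fitted. The replicate numbers did not pair the libraries (correlations of same-numbered deviations -0.12 to 0.085), and a fit with the replicate block called 553, 380 and 291. Depth was low throughout, with 481 loci under 5 mean fragments.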
